A study of Mus musculus with 8 samples.

Results

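The course described here is the loss of mRNA from P19 cells depleted of Upf3a, followed over 4 times after transcription was stopped. P19 is a mouse embryonal carcinoma line, a tumour-derived cell type that resembles the early embryo. Cells were transfected with an siRNA against Upf3a (siUPF3A) or a control siRNA (siControl), given the transcription blocker actinomycin D a day later, and sampled at 0, 15, 105 and 225 min. All groups of both arms therefore carry an siRNA and, at every time after 0 min, the drug. The knockdown was transient and left a part of the Upf3a mRNA in place. The labels name 2 cultures for each condition, but the table holds 1 value per gene and condition, so there are no separate replicates.

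Members are the genes with a mean of 5 FPKM or more over the 4 knockdown conditions, FPKM being fragments per kilobase of transcript scaled for depth. There were 8079 of them among 23284 genes in the table. The same rule in the control arm gave 8056 genes, and 7789 met it in both. Just inside the limit were Acp5 and Tdrd7, with means of 5.0006 and 5.0007 FPKM, and just outside it Lix1 and Rspo3, with 4.996 and 4.995 FPKM. A total of 1482 members lie at a locus that the table gives to more than 1 gene, and their reads may be split between them.

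Once transcription stops, the level of an mRNA depends on how fast it is degraded. Most mRNAs lose the poly(A) tail first and are then decapped and digested, and sequences of the 3' UTR, such as AU-rich elements and binding sites of Pumilio proteins, recruit the enzymes that shorten the tail. Nonsense-mediated decay (NMD) is a separate route that removes mRNAs with a stop codon in an early position. Upf3a and its paralog Upf3b both bind the exon junction complex that marks spliced mRNA, and Upf3b promotes NMD while Upf3a has been described as a weak activator or an inhibitor of it.

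The 3' UTR sites below show the elements that were counted in each member, in mRNAs from among those with fast loss. They were read from the GENCODE vM21 annotation on GRCm38, 1 coding transcript per gene, and are written 5' to 3' on the mRNA strand with the motif in capitals. The first 3 hold the Pumilio motif TGTANATA and the other 3 the AU-rich heptamer TATTTAT.
Slc38a2 (chr15:96687845-96687874, minus strand): ccatatgtattTGTAAATAgatTGTATATA
Pnrc1 (chr4:33245896-33245925, minus strand): attttatatttTGTAAATActgtataccat
Dusp6 (chr10:99266789-99266818, plus strand): tatctgattatTGTAAATAtttgatcttca
Irf1 (chr11:53777103-53777132, plus strand): gcctttgcattTATTTATatagtgccttgc
Sgk1 (chr10:21999635-21999664, plus strand): aaaacgggcatTATTTATgttttttttccc
Dusp1 (chr17:26506158-26506187, minus strand): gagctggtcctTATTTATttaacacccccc
Another element, AGCACTT, is the match to the seed of miR-294, a microRNA of the early mouse embryo. Its mature sequence from RefSeq is shown with the seed, bases 2 to 8, in capitals.
mmu-miR-294-3p: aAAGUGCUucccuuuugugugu

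Upf3a, the targeted gene, was read at 5.27, 4.52, 4.76 and 4.16 FPKM at 0, 15, 105 and 225 min in the knockdown arm, and at 13.6, 13.95, 14 and 14.98 FPKM in the control arm. All 4 knockdown values lay below all 4 control values. With a knockdown mean of 4.68 FPKM the gene falls just under the limit for members. Its own slope in the knockdown arm was -0.05 ± 0.03 log2 units per hour (± standard error), which did not pass (limma, adjusted p = 0.15), and it was 0.07 after quantile normalization and -0.30, passing, on the scale of ribosomal protein mRNAs described with the counts over all members. Upf3b, a member, was read at 9.804, 8.24, 10.8 and 14.02 FPKM and rose against the bulk by 0.16 ± 0.04 per hour (limma, adjusted p = 0.015), or by 0.13 and without passing when 225 min was left out. On the ribosomal scale Upf3b had -0.13, and with no filter on low values it did not pass.

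The markers of the labelled cell type were present. Of 10 markers of embryonal carcinoma cells, 9 had a mean of 5 FPKM or more, and their summed level ran from 2567 to 4298 FPKM over the conditions. Neuronal and glial markers reached that level for 2 of 9 (Tubb3 and Stmn2), endoderm and heart markers for 1 of 10 (Actc1) and fibroblast markers for 1 of 10 (Acta2), with summed levels of 103 to 157, 17.4 to 27.6 and 14.9 to 24.5 FPKM. Afp, Sox17, Tnnt2 and Ttr stayed under a mean of 0.1 FPKM. In bulk RNA, fewer cells of a type and less RNA per cell cannot be told apart. FPKM totals per condition ran from 537350 to 923333 and were highest at 225 min in both arms, and read depth is unknown.

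Slopes over hours were fitted to log2(FPKM + 1) with limma and adjusted by Benjamini-Hochberg over 11452 genes tested. The p-values measure how large a slope is against the departure of the 4 times from a straight line, not against the spread between cultures. In the knockdown arm 2314 members fell (28.6%, against 34.2% of all genes tested), 3694 rose (45.7%, against 37.1%) and 2071 did not pass. The median slope was 0.05 log2 units per hour over members and 0.02 over all genes tested, and the middle 50% of members lay between -0.12 and 0.16. Slopes below -0.5 were found for 314 members, from -0.5 to -0.25 for 919 and of 0.25 or more for 568. By the authors' own confidence limits, 1298 members were lower at 225 than at 0 min with no overlap (16.1%, against 19.8% of all genes tested) and 795 were higher (9.84%, against 7.01%). Of these, 1285 and 790 had also passed by slope in the same direction, from the same values.

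FPKM has no outside standard, so a slope is a rate relative to other mRNAs. The bulk here means the typical gene. Its median log2 level, against the mean over the 8 conditions, stayed between -0.0029 and 0.041 in the knockdown arm. A rise means slower loss than that of the typical gene. The FPKM total of the knockdown arm went from 537437 at 0 min to 923333 at 225 min. A small rise therefore need not be a gain against the summed FPKM. Scaling the conditions to 82 cytosolic ribosomal protein genes moved the median slope of all genes tested by -0.26 per hour. On that scale 7121 members fell and 20 rose, and 99.7% of the passing members were lower, against 38.5% as deposited. That scaling divides every gene of a condition by the same factor, so the order of members was bound to stay nearly the same. Spearman's rho with the deposited scale was 0.997 across 8079 genes, which are not independent replicates. Quantile normalization, which can reorder genes, changed the order more (rho 0.795), with 2213 lower and 2895 higher. Directions below refer to the deposited scale, and each positive list median given below is negative on the ribosomal scale, except that of cytosolic ribosomal proteins. Among members that fell, the median relative half-life, 1 divided by the slope without its sign, was 3.83 h (quartiles 2.47 and 6.41 h). With a pseudocount of 0.1 in place of 1 it was 3.47 h.

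Among members the rule for named genes allows, Nodal lost the most. Nodal encodes a secreted signal of the TGF-beta family that maintains the epiblast, and it was read at 68.5, 66.1, 8.36 and 2.54 FPKM. Its level at 225 min was 3.704% of that at 0 min, and its slope was -1.21 ± 0.13 log2 units per hour (limma, adjusted p = 0.0022). Irf1, an interferon-response transcription factor, was read at 38.6, 39.3, 5.198 and 2.79 FPKM, with a slope of -0.97 ± 0.16 (adjusted p = 0.0064). Sgk1, a kinase induced by serum and steroids, was read at 77.9, 68.97, 13.8 and 7.19 FPKM, with a slope of -0.91 ± 0.12 (adjusted p = 0.0037). In all 3 the 0 and 15 min values lay close together and both later values far below them.

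The next in order held other short-lived regulators. Slc38a2, the amino acid transporter that carries 5 Pumilio motifs in its 3' UTR, was read at 97.3, 92.3, 26.2 and 9.94 FPKM and fell by 0.88 per hour (adjusted p = 0.0013). Fbxo5, an inhibitor of the anaphase-promoting complex, had a slope of -0.90. Pnrc1, a nuclear receptor coactivator, had -0.88 and Cited2, a transcriptional co-regulator, -0.84. The matricellular gene Cyr61 had -0.82, the Wnt receptor Fzd10 -0.82 and the mitosis-inhibiting kinase Wee1 -0.82. Without 225 min the slopes became steeper by over 1.5 times for 5 of the genes named in these paragraphs, at -1.62 for Irf1, -1.42 for Sgk1, -1.36 for Fbxo5, -1.51 for Pnrc1 and -1.48 for Cyr61. Without 0 min, Cyr61 had -0.79 and did not pass. With no filter on low values, Irf1, Pnrc1 and Cyr61 did not pass either.

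**Figure D1:**
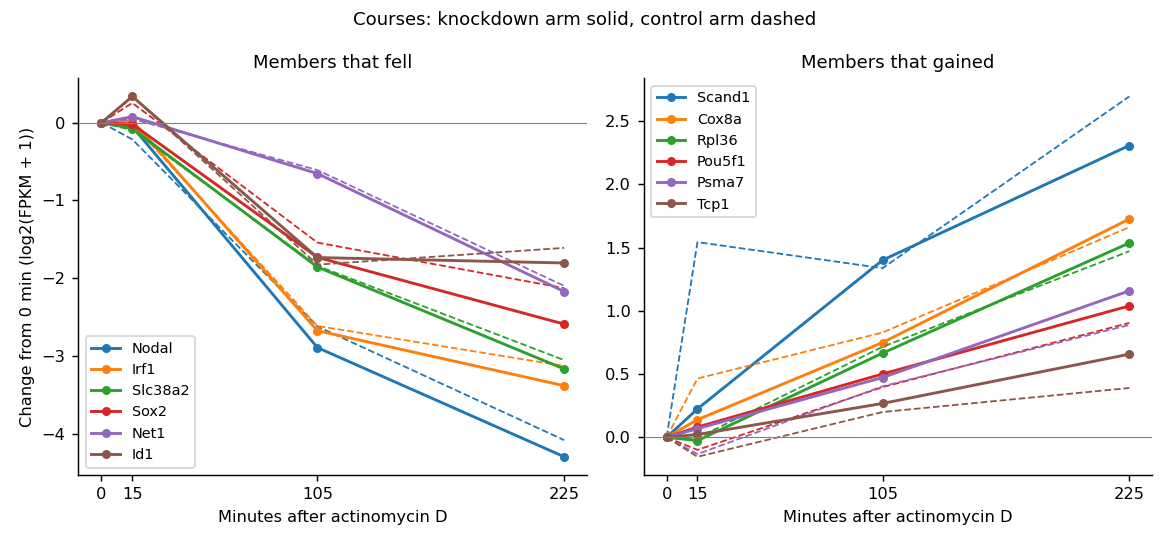
Change of log2(FPKM + 1) from 0 min (vertical axis) against minutes after actinomycin D (horizontal axis) for 6 members that fell and 6 that gained, solid with points in the knockdown arm and dashed in the control arm. Nodal and Irf1 drop steeply to 105 min, Net1 drops mostly after 105 min, Id1 is higher at 15 min before it drops, and the gains refer to the deposited scale: scaled to ribosomal protein mRNAs the slopes of Pou5f1, Tcp1 and Psma7 are negative, and those of Pou5f1 and Tcp1 also are after quantile normalization.

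Feedback genes of ERK signalling, phosphatases and Spry or Spred proteins that dampen growth factor signals, fell as 10 of 10 members, with a median slope of -0.59 (control arm -0.54). Dusp6, a phosphatase of ERK, was read at 33.9, 30.9, 5.14 and 3.49 FPKM, with 10.3% left at 225 min and a slope of -0.84 ± 0.16 (limma, adjusted p = 0.0090). Dusp1 had a slope of -0.81, Spred2 of -0.67, Dusp4 of -0.60 and Spred1 of -0.55. Dusp6 and Dusp1 had slopes of -1.49 and -1.38 to 105 min, and Dusp6 did not pass without 0 min (-0.78). Neither Dusp6 nor Dusp1 passed with no filter on low values. The Id genes, which block helix-loop-helix factors, and other genes of BMP signalling fell as 8 of 8, with a median of -0.41. Id2 was read at 15.8, 16.3, 6.47 and 2.196 FPKM and had a slope of -0.67, Smad1, a BMP signal transducer, had -0.67 and Smad4, the common partner of Smads, -0.26.

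Transcription factor families fell in most members. Klf and Sp factors, zinc finger proteins that bind GC-rich promoters, fell as 8 of 8 with a median of -0.47, among them Klf13 at -0.55, Sp3 at -0.46 and Sp1 at -0.36. Of 8 immediate early and AP-1 genes 6 fell and 0 rose (median -0.32), with Jun read at 8.905, 9.03, 2.68 and 1.74 FPKM. Of 116 genes named Zfp, mostly DNA-binding zinc finger proteins, 88 fell and 10 rose, with a median of -0.30, and Zfp828 and Zfp143 had slopes of -0.57 and -0.48. Of 10 genes of the Myc network 6 fell and 3 rose, with Mycn, the growth regulator, at -0.77 and the common partner Max at -0.16, which did not pass without 225 min (-0.15). Jun had a slope of -0.53, and of -0.87 without 225 min. Over all members the shares that fell and rose were 28.6% and 45.7%.

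Factors of the embryonic state did not move as 1 group. Among 10 primed epiblast and primitive streak genes 7 fell and 0 rose, with a median of -0.41: after Nodal came Otx2, a factor of the anterior epiblast, at -0.72, the Nodal inhibitor Lefty1 at -0.54, Eomes at -0.53 and the growth factor Fgf5 at -0.30. Among 21 pluripotency factors 9 fell and 7 rose (median 0.01, and -0.13 after quantile normalization). Sox2, read at 75.1, 74.1, 21.9 and 11.6 FPKM, fell by 0.73 per hour. Its partner Pou5f1, which encodes Oct4, was read at 1534, 1623, 2171 and 3153 FPKM and rose by 0.28 (limma, adjusted p = 0.0013), but had -0.04 when scaled to ribosomal protein mRNAs and -0.01 after quantile normalization. Sox2 had the lowest slope of the list and Pou5f1 one of the 2 highest, and Sox2 lay below Pou5f1 on both other scales (-1.02 and -0.74). Sall4 had -0.49, Nanog -0.13 (not passing without 225 min, -0.13) and Dppa5a, a stem cell marker, 0.31. The Sox2 locus is shared with 2 other genes of the table.

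The mRNAs of decay factors included both falls and gains. Pum2, a Pumilio protein, was read at 47.96, 44.99, 24.5 and 9.51 FPKM and fell by 0.60 per hour. Of 17 genes for AU-rich element and related binding proteins 9 fell and 3 rose (median -0.08). Elavl2, a stabilising protein, had -0.51, and Zfp36l2 and Zfp36l1, which recruit the deadenylase, had -0.41 and -0.26. Of 49 genes for deadenylation, decapping and the exosome 14 fell and 20 rose (median 0.04), or 28.6% and 40.8%, close to the 28.6% and 45.7% of all members. Pelo, a ribosome rescue factor, fell by 0.76 and Cnot2, a deadenylase subunit, by 0.36, while Lsm4 and Lsm7, of the ring that aids decapping, rose by 0.38 and 0.34 and the exosome subunit Exosc5 by 0.31.

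NMD factors had slopes on both sides of the bulk. Of 9 members 1 fell and 4 rose, with a median of 0.04 (control arm 0.07), against 28.6% and 45.7% and a median of 0.05 over all members. Besides Upf3b, Smg5 rose by 0.15, Nbas by 0.10 and Upf1, the helicase of the pathway, by 0.08. Upf1 and Nbas are borderline calls: neither passed with no filter on low values, Upf1 did not pass without 0 min (0.07) or 15 min (0.07), moved to 0.14 without 225 min and was -0.02 after quantile normalization, and Nbas did not pass without 0, 15 or 225 min (0.12, 0.09 and 0.13). Scaled to ribosomal protein mRNAs, Smg5, Nbas and Upf1 had -0.16, -0.17 and -0.23. Of 15 exon junction complex genes 3 fell and 9 rose (median 0.10, and -0.05 after quantile normalization). Magoh, a core subunit, had 0.18 and Casc3, the peripheral subunit, -0.28 (-0.18 without 225 min), while Magoh had -0.13 and -0.03 on the ribosomal and quantile scales.

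Known NMD substrates gave no common direction. Of 26 members of that list 6 fell and 9 rose, with a median of -0.0044 (control arm 0.0054) and a median difference between arms of 0.01. Pim3, a kinase, fell by 0.75, the stress gene Sesn2 by 0.44 and Atf4, the stress transcription factor with upstream reading frames, by 0.26, while Atf5 rose by 0.19 (-0.10 on the ribosomal scale). Among 13 snoRNA host genes, whose spliced RNAs are mostly noncoding, 4 fell and 1 rose, with a median of -0.16 against -0.08 in the control arm. In 12 of the 13 the slope was more negative in the knockdown arm, as it was in 41.7% of all members and 7 of 82 cytosolic ribosomal protein genes, and no difference passed. Some other lists with low slopes leaned the same way, with 9 of 10 ERK feedback genes and 82 of 116 Zfp genes, so this is not particular to snoRNA hosts. Among Id and BMP genes, also low, the count was 3 of 8, so not every list with low slopes shared it. Snhg5 was read at 46.7, 43.98, 12.6 and 8.28 FPKM in the knockdown arm and 39.05, 36.8, 11.8 and 9.14 FPKM in the control arm, with slopes of -0.66 and -0.56. Snhg1 was read at 393, 424, 467 and 711 FPKM and rose by 0.22, with 0.13 and no call without 225 min and negative slopes of -0.10 and -0.04 on the ribosomal and quantile scales. Without 225 min Snhg5 had -1.08.

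Members were also split by annotated transcript features that the list does not use. The 2497 members with an annotated NMD transcript had a median slope of 0.06 and the 5356 without one 0.05, with median differences between arms of 0.0087 and 0.0072. Only 18 members had an exon junction 50 or more bases after the stop codon of the transcript used, with a median difference of 0.01.

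**Figure D2:**
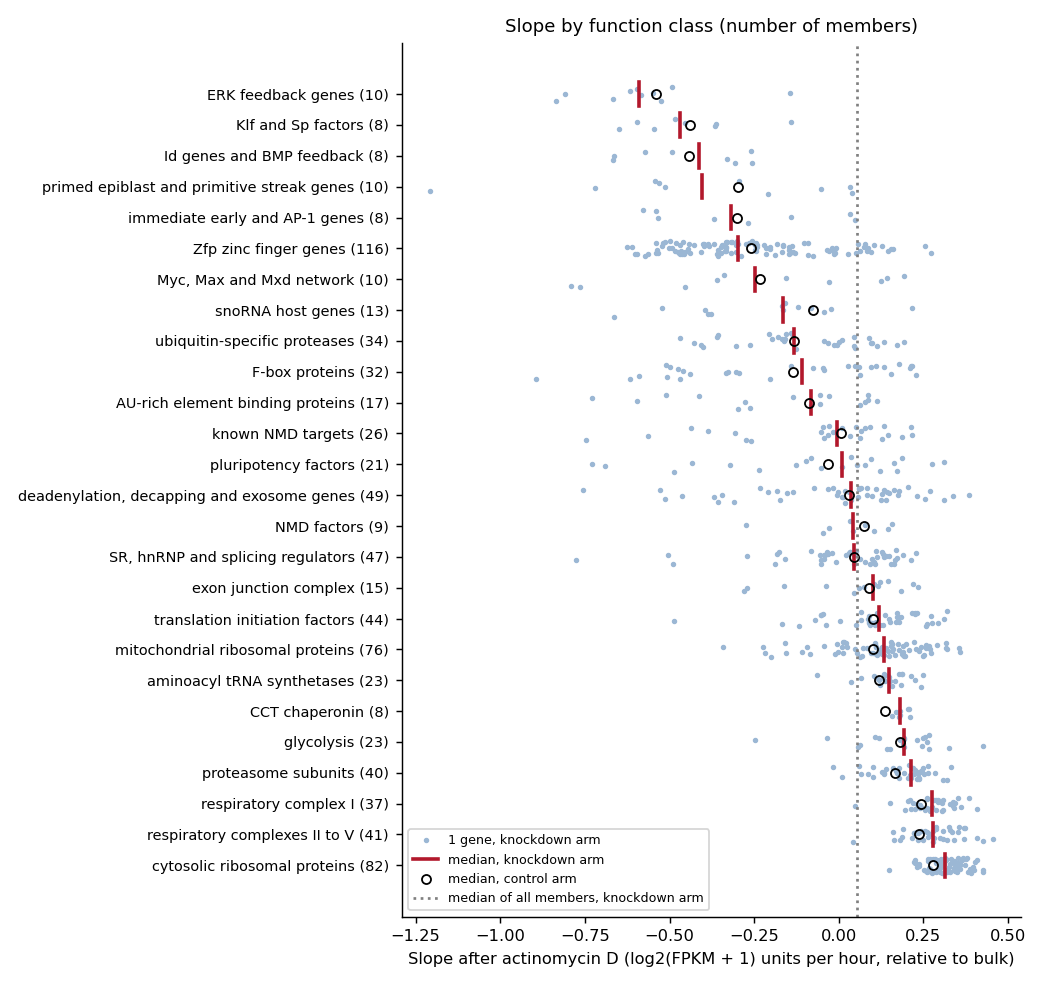
Slopes in log2(FPKM + 1) units per hour (horizontal axis) for the members of 26 function classes (vertical axis, number of members in brackets), with points for genes and a red bar for the median in the knockdown arm and an open circle for the median in the control arm. Classes run from ERK feedback genes at -0.59 to cytosolic ribosomal proteins at 0.31 on the deposited scale. Scaled to ribosomal protein mRNAs every class drawn except ribosomal proteins themselves (0.0015) has a negative median, and after quantile normalization the medians of initiation factors, CCT chaperonin, the exon junction complex, splicing regulators and pluripotency factors are negative.

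The genes of protein synthesis rose against the bulk nearly as a block. Of 82 cytosolic ribosomal protein genes 81 rose and 0 fell, with a median of 0.31 (control arm 0.28), the smallest slope being 0.15. Rpl36 was read at 2749, 2700.4, 4361 and 7976 FPKM, 290.1% at 225 min of its 0 min value, with a slope of 0.42 ± 0.02 (limma, adjusted p = 0.0013). Rps21 and Rpl13 had 0.39 and 0.41. After quantile normalization the median of the class was 0.021, against 0.026 over all members, and Rpl36 no longer passed (0.05). Of 76 mitochondrial ribosomal proteins 54 rose and 9 fell (median 0.13, and 0.037 after quantile normalization), with Mrpl33 at 0.36. Of 44 initiation factors 31 rose and 4 fell (median 0.12, and -0.02 after quantile normalization). Eif3k had 0.32, while Eif1a, of the scanning complex, went the other way at -0.49. Of 23 aminoacyl tRNA synthetases 21 rose and 0 fell (median 0.15, and 0.0037 after quantile normalization). On the ribosomal scale the medians of these 3 classes were -0.17, -0.17 and -0.16.

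Respiratory chain and glycolysis genes mostly rose. In respiratory complex I 36 of 37 members rose and 0 fell (median 0.28), and in complexes II to V 40 of 41 rose and 0 fell (median 0.28). Cox8a, a subunit of cytochrome oxidase, was read at 562, 619, 945 and 1861 FPKM with a slope of 0.45 ± 0.02 (limma, adjusted p = 0.0012), and Ndufa7 of complex I at 379, 383, 587 and 1071 FPKM with a slope of 0.41. Both classes had a median of -0.03 on the ribosomal scale and stayed positive after quantile normalization (0.10 and 0.06). Of 23 glycolysis genes 19 rose and 1 fell (median 0.19, -0.12 on the ribosomal scale). Gapdh, often used as a reference gene, was read at 4138, 4048, 5572 and 9411 FPKM, with a slope of 0.33 that was -0.0032 after quantile normalization. Of 18 genes of serine and one-carbon synthesis 17 rose and 0 fell (median 0.19, -0.11 on the ribosomal scale). Phgdh, the entry enzyme, had 0.25 and on the ribosomal scale -0.06. After quantile normalization the medians of glycolysis and of serine and one-carbon synthesis were 0.017 and 0.049, against 0.026 over all members. Other metabolic lists were more mixed: of 33 genes of cholesterol and fatty acid synthesis 18 rose and 5 fell (median 0.11), of 27 mitochondrial carriers 16 rose and 7 fell (median 0.12), and of 15 amino acid transporters 6 rose and 3 fell (median 0.04).

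Protein turnover split by role. Of 40 proteasome subunits 36 rose and 0 fell (median 0.21), with Psma7 at 0.31 (-0.0032 on the ribosomal scale) and Psmb3 at 0.33, and all 8 subunits of the CCT chaperonin, which folds actin and tubulin, rose (median 0.18, but -0.04 after quantile normalization). In contrast, of 34 ubiquitin-specific proteases 18 fell and 5 rose (median -0.13), with Usp44 at -0.47. Of 32 F-box proteins, the substrate adaptors of SCF ligases, 17 fell and 10 rose (median -0.11), with Fbxo34 at -0.62. On the ribosomal scale the proteasome and CCT medians were -0.10 and -0.13. After quantile normalization the proteasome median was 0.016, against 0.026 over all members.

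Stress and cell cycle genes were mixed. Of 15 heat shock genes 12 rose and 3 fell (median 0.13, and -0.08 after quantile normalization and -0.18 on the ribosomal scale). Hspb1, a small heat shock protein, had 0.38, while Dnajb1, an inducible co-chaperone, had -0.57 and the transcription factor Hsf2 -0.43. Of 42 DNA replication genes 20 rose and 7 fell (median 0.07, and -0.0066 after quantile normalization and -0.23 on the ribosomal scale). The 3 lowest were the licensing genes Cdt1 at -0.62, Orc1 at -0.39 and Cdc6 at -0.33. Of 43 mitosis and spindle genes 16 fell and 12 rose (median 0.02, and -0.08 after quantile normalization and -0.29 on the ribosomal scale), with Ect2, an exchange factor of cytokinesis, at -0.29. Of 13 genes of the p53 pathway 7 fell and 2 rose (median -0.17), among them Mdm2, the ligase that degrades p53, at -0.24 and the cell death gene Bax at 0.23 (-0.08 on the ribosomal scale).

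The member with the largest gain that the naming rule allows was Scand1, a SCAN domain protein, read at 15.1, 17.8, 41.5 and 78.7 FPKM with a slope of 0.62 ± 0.05 (limma, adjusted p = 0.0014) at a locus shared with another gene. In the control arm it was read at 8.57, 26.9, 23.2 and 60.96 FPKM, with its 15 min value above that at 105 min. Hist1h4d, a replication-dependent histone gene whose mRNA normally lacks a poly(A) tail, was read at 2.11, 7.33, 9.72 and 15.4 FPKM. Its slope was 0.49, with 0.28 without 0 min and 0.75 and no call without 225 min. It also did not pass with a pseudocount of 0.1 (0.57), on the ribosomal scale (0.22), with no filter on low values or with a trend and robust eBayes. Eno1, a glycolytic enzyme, was read at 612, 458, 813 and 1582 FPKM, with a slope of 0.42 that did not pass without 225 min (0.34). Members with small RNA symbols numbered 36 and ran from -1.68 to 2.67 per hour, and 3 passed.

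The shape of a course was taken from the share of the 225 min change reached by 105 min, among members that passed and changed by 0.5 log2 units or more. A straight line gives 46.7%. The median share was 45.8% for 1889 falls and 45.4% for 2548 gains, so both medians lay close to a straight line. Only members that passed by slope have a shape, and departure from a straight line is the error of that test. Strongly bent courses, such as that of Gas5 described below, can fail it and then have no shape. The closeness to a straight line and the shares of steady courses are therefore partly set by this selection. Of the falls 295 were front-loaded (15.6%, a share of at least 2 in 3), 1147 steady (60.7%) and 447 late (23.7%, under 1 in 3). Of the gains 197 were front-loaded (7.73%), 2054 steady (80.6%) and 297 late (11.7%). Front-loaded falls lost a median of 1.02 log2 units from 15 to 105 min and 0.37 afterwards, and late falls 0.22 and 0.65. With a net change of 1 log2 unit or more required, late falls were 13.3% and front-loaded falls 19.9%.

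Shapes by function class are given as a description, with no test. The shares come from log2(FPKM + 1) and were not repeated with another pseudocount. For members that end at a few FPKM the added 1 shrinks the late loss, which raises the share reached by 105 min. Members with high FPKM, such as ribosomal protein genes, are hardly touched by it, so shares of the classes are not fully comparable. Of 8 immediate early genes 5 had a shape, 3 front-loaded and 2 steady (median share 77.1%), and Ier2 was read at 39.5, 38.98, 10.6 and 9.16 FPKM, with 90.6% of its loss by 105 min and -1.09 per hour to that time against -0.58 overall. Ier2 did not pass without 0 or 15 min (-0.54 and -0.52), or with no filter on low values. Id genes and BMP genes had a median share of 61.4%, Zfp genes 60.1% with 31 of 88 front-loaded, and ERK feedback genes 58.8%. Among gains, ribosomal proteins had a median of 39.5% with 75 of 81 steady, and glycolysis 36.2%. Late falls with the largest loss were Lrch4, read at 8.104, 8.51, 4.24 and 0.7399 FPKM, the palmitoyltransferase Zdhhc5, the exchange factor Net1, read at 21.9, 23.2, 13.5 and 4.08 FPKM, and Atmin. Zdhhc5 and Atmin had slopes of -0.39 and -0.36 to 105 min against -0.60 and -0.57 overall.

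**Figure D3:**
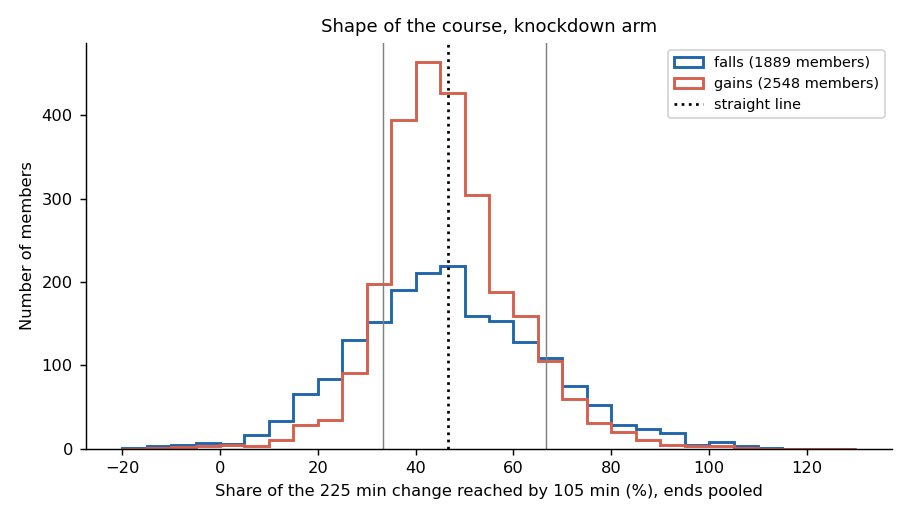
Number of members (vertical axis) by share of the 225 min change reached by 105 min in percent (horizontal axis), for 1889 falls and 2548 gains in the knockdown arm, with the few values beyond the ends pooled there. The dotted line marks 46.7%, the share on a straight line, and the grey lines bound the steady class. Falls spread wider to both sides than gains, and few members gain on the ribosomal scale (20 passed).

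A class of 18 falls started with a rise of 0.2 log2 units or more at 15 min, and 7 of them also rose by that much in the control arm. Id1 was read at 51.9, 65.8, 14.9 and 14.2 FPKM in the knockdown arm and 68.7, 86.9, 18.6 and 21.8 FPKM in the control arm. Its slope of -0.57 did not pass without 0 min (-0.58) or 15 min (-0.47), and was -1.13 without 225 min. Id1 also did not pass with no filter on low values or with a trend and robust eBayes. Ddit4, a stress-induced inhibitor of mTOR, was read at 20.02, 27.6, 13.4 and 7.35 and 20.6, 50.5, 13.9 and 12.8 FPKM, with a slope of -0.42 that did not pass without 225 min (-0.43). Foxo3, a stress-response factor, was read at 7.65, 9.07, 4.32 and 1.88 and 6.72, 10.1, 3.69 and 2.39 FPKM. In these 3 genes the 15 min value was the highest of each arm, and in Ndnl2 only of the knockdown arm (21.6, 25.5, 13 and 4.45 against 24.8, 22.5, 15.4 and 6.52 FPKM).

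Shapes were less alike between arms than slopes. A control shape needed the same net change and direction in the control arm, but passing was asked for in the knockdown arm only. Among members with a shape in both arms, 75.5% of front-loaded, 74.7% of steady and 49.5% of late falls had the same shape in the control arm. For gains the shares were 9.86%, 85.9% and 16.9%. Whatever their knockdown shape, 128, 1564 and 146 of 1838 gains were front-loaded, steady and late in the control arm. Among 1730 falls these counts were 360, 1060 and 310. The share for steady gains was thus close to that over all gains. Departure from a straight line was tested by a quadratic term, which passed for 8 members (limma, against 0.0873% of all genes tested), with 1161 at an unadjusted p below 0.05 (14.4%, against 17.5% of all genes tested). Of the 8, 6 carry small RNA or predicted gene symbols, and the other two, named after their values were seen, are the chemokine receptor Cxcr4, at 10.8, 7.94, 1.098 and 0.906 FPKM, and the snoRNA host Gas5, at 21.7, 16.3, 5.69 and 7.28 FPKM. This count ran from 0 to 252 over the settings tried and is no stable result. Cxcr4 had a slope of -0.71 (-1.41 without 225 min, and no call without 0 or 15 min or with no filter), and Gas5 of -0.39, which did not pass but did at -0.98 without 225 min.

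The control arm gave nearly the same order of stability. There 2247 members fell and 3290 rose (against 32.6% and 33.2% of all genes tested), or 1442 and 1386 without 225 min. Of the members that fell in the knockdown arm 91.4% fell in the control arm too, and of those in the control arm 94.1% fell in the knockdown arm. For gains the shares were 84.8% and 95.3%. Slopes of the 2 arms had a Pearson's r of 0.919 and a Spearman's rho of 0.973 across 8079 genes, which share library and annotation and are not independent replicates. The middle 50% of slopes spanned -0.12 to 0.16 in the knockdown arm and -0.11 to 0.14 in the control arm.

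**Figure D4:**
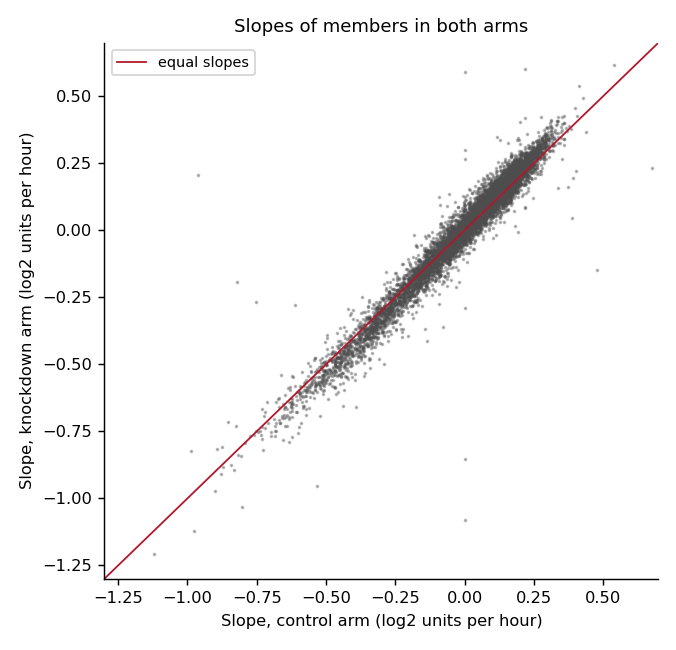
Slope in the knockdown arm (vertical axis) against slope in the control arm (horizontal axis), both in log2(FPKM + 1) units per hour, for 8067 of the 8079 members, the other 12 lying outside the axes. Points lie along the line of equal slopes.

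The difference of slopes between arms passed for 1 member (limma, against 0.00873% of all genes tested), the small RNA gene Mir3096, which was listed at 0 in 3 knockdown conditions. At an unadjusted p below 0.05 there were 445 members (5.51%, against 6.65% of all genes tested), 230 of them with faster loss in the knockdown arm. A share near 5% is what such a threshold gives with no difference. The genes ranked first by the naming rule did not pass. Cdkn2d, a Cdk inhibitor, was read at 11.3, 11.9, 7.18 and 3.44 FPKM in the knockdown arm and 11.3, 12.4, 9.88 and 8.08 FPKM in the control arm, a difference of -0.28 ± 0.03 per hour (limma, adjusted p = 0.14). Rprm, a p53 target that arrests the cell cycle, had -0.18 ± 0.03 (adjusted p = 0.47) and Lrch4 -0.22 ± 0.04 (adjusted p = 0.47). In the other direction, Ndufab1, the mitochondrial acyl carrier protein, had 0.14 ± 0.03 (adjusted p = 0.62), Pdk3, a kinase that inhibits pyruvate dehydrogenase, 0.12 ± 0.03 (adjusted p = 0.65), and Ass1, of arginine synthesis, 0.23 ± 0.04 (adjusted p = 0.47).

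Slopes were also set against annotated transcript structure, as a description across genes. A coding transcript was matched for 7853 members. Slopes were lower in longer transcripts (Spearman's rho -0.47 across genes, -0.45 in the control arm), from a median of 0.19 in the shortest of 5 equal classes to -0.08 in the longest. Members with few exon junctions per kilobase of coding sequence were the least stable. In the lowest of 5 equal classes, with up to 4.095 junctions per kb, the median was -0.18, 61.8% fell and 17.1% rose, and in the highest class the median was 0.13, 10.2% fell and 68.3% rose (rho 0.43). The number of exons alone had a rho of -0.06. FPKM divides by transcript length, and the part of length and of 3' bias in these relations was not tested.

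Over all members, median slopes were lower with more copies of each 3' UTR motif. All were searched on the mRNA strand only in 7803 members, overlapping matches counted, and matches of different motifs can share at most 2 bases. For TGTANATA the median slope was 0.09 with none, -0.02 with 1, -0.15 with 2 and -0.23 with 3 or more, and 68.4% of the last 171 members fell. For TATTTAT the medians were 0.08, -0.01, -0.06 and -0.13, and for AGCACTT 0.07, -0.05, -0.11 and -0.18. Among 299 members with slopes below -0.5, TGTANATA was found in 49.8%, TATTTAT in 42.1% and AGCACTT in 24.4%, against 24.7%, 26.8% and 14.7% of all members with a 3' UTR. Those 299 had a median 3' UTR of 1246 bases, against 952 overall.

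Longer 3' UTRs hold more matches, so the counts were repeated within 3 equal classes of 3' UTR length, where 8.69%, 22.1% and 43.4% of members held TGTANATA. With 1 copy of TGTANATA the median was lower than with none by 0.12 in the shortest class, 0.08 in the middle and 0.06 in the longest, against 0.11 over all. For TATTTAT the differences were 0.05, 0.06 and 0.05, against 0.09 over all, and for AGCACTT 0.10, 0.07 and 0.05, against 0.12. In the middle class the median for TATTTAT was no lower with 3 or more copies (-0.028, 27 members) than with 2 (-0.036). Ribosomal protein 3' UTRs, with a median of 73.5 bases, held TATTTAT in 2 of 82, TGTANATA in 8 of 82 and AGCACTT in 6 of 82. Per kb of 3' UTR only TATTTAT was rarer there than over all members (0.15 against 0.27 sites). TGTANATA had 0.30 against 0.25 sites per kb, and AGCACTT 0.26 against 0.12. Zfp genes, which mostly fell, held TATTTAT in 26.1% and TGTANATA in 27.0%, against 26.8% and 24.7% over all members. The control arm gave median slopes by motif close to those of the knockdown arm. For members with 3 or more TGTANATA the control median was -0.22, and the median difference between arms was -0.01. A match is a description, not a site of binding, and the 3' UTR used in P19 cells may differ from the annotated one.

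**Figure D5:**
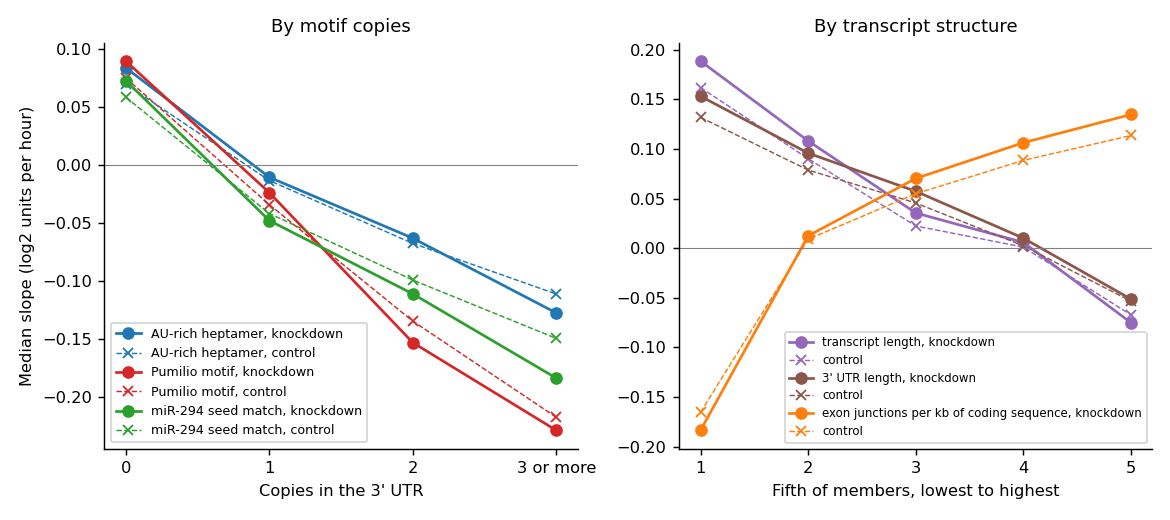
Median slope in log2(FPKM + 1) units per hour (vertical axes), against motif copies in the 3' UTR (left) and against 5 equal classes of members by transcript length, 3' UTR length and exon junctions per kb of coding sequence (right), solid in the knockdown arm and dashed in the control arm. Medians fall from 0.09 to -0.23 with copies of the Pumilio motif and climb from -0.18 to 0.13 with junction density, and the dashed lines stay close to the solid ones.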

How the data were processed

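RNA of P19 cells was sequenced in 2 siRNA arms, each at 4 times of actinomycin D treatment. Total RNA was extracted with Trizol, per the labels' protocols, and TopHat2, Cufflinks and mm10 are named, without versions, in the tools and builds listed per the submitters' processing notes. The authors deposited 1 FPKM value per gene and condition with lower and upper limits, per the file headers. The 2 cultures of a condition appear as 1 value. How they were combined, the annotation, the strand and the level of the limits are not given in the sources used here. Depth is unknown, so precision per gene cannot be given from counts.

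Slopes over hours were fitted with limma 3.58.1 in R 4.3.3 to log2(FPKM + 1) of 11452 genes with a mean of 1 FPKM or more over the 8 conditions, without trend, with 2 residual degrees of freedom. On simulated data the fit returned the slopes put in, missed most small slopes, and made more false calls among knockdown slopes than the threshold allows. Curvature used a quadratic term, and the difference between arms an arm-by-hours term with time as a factor. Adjusted p (Benjamini-Hochberg) below 0.05 was the threshold. Tables were read with Python 3.11.15. Annotation was GENCODE vM21 on GRCm38, matched for 98.7% of members by symbol or older name.

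The members and gene lists were chosen with earlier results of these data known. Named genes are the 12 most negative and 12 most positive slopes among passing members with the same sign without each time, the 4 largest changes per shape and direction, the 4 largest falls with a rise at 15 min, the 5 members per list with the largest moderated t, and the 5 largest differences between arms each way, with Upf3a and Upf3b. Predicted genes, small RNAs, pseudogenes and Rik clones were left out. The text gives some of these, chosen after their values were seen. Alternatives were other pseudocounts, filters, scalings and eBayes settings, each time left out, genes alone at their locus, and stricter limits.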

Additional observations from a re-analysis of the deposited data

Results flagged for a closer look

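Mir3096, a small RNA gene, differed between the arms in slope by 5.50 log2 units per hour (knockdown minus control), by limma's test of the arm-by-hours term, and was the 1 member that passed. It was listed at 0 at 0, 15 and 105 min in the knockdown arm and at 1191 FPKM at 225 min, while the control arm had 849 FPKM at 0 min and was listed at 0 at 225 min. Without 225 min its knockdown slope was listed at 0. It shares its locus with another gene of the table, and with genes alone at their locus, and with no filter on low values, no difference passed.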

How the results depend on the processing

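Each condition has 1 value and the read depth is unknown, so the spread between cultures could not be measured and low values could not be judged. No paired analysis was possible because the 2 cultures of a condition are combined in 1 column that carries no replicate number. For the 101 genes with values in the text, 1209 of 1294 gene and setting pairs kept direction and side of the threshold, 57 no longer passed, 8 newly passed and 20 turned direction. Part of this is fixed in advance. Other filters, the trend and robust eBayes and genes alone at their locus leave the slope itself unchanged, so direction cannot turn there. The genes named for extreme slopes were also picked for keeping their sign with each time left out. With no filter on low values 13 of the 101 did not pass: Upf3b, Irf1, Pnrc1, Dusp6, Cyr61, Dusp1, Id1, Ier2, Upf1, Nbas, Hist1h4d, Mir3096 and Cxcr4. Where no value in the text bears on a change, the cause was not tested.

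Scaled to ribosomal protein mRNAs, 7121 members fell and 20 rose in the knockdown arm, and 6905 fell and 13 rose in the control arm. On that scale the slope was -0.13 for Upf3b, -0.035 for Pou5f1, -0.23 for Upf1, -0.16 for Smg5, -0.17 for Nbas, -0.13 for Magoh, -0.10 for Atf5, -0.10 for Snhg1, -0.0032 for Psma7, -0.13 for Tcp1, -0.064 for Phgdh, -0.10 for Pdk3 and -0.078 for Bax. After quantile normalization it was 0.072 for Upf3a, -0.011 for Pou5f1, -0.016 for Upf1, -0.031 for Magoh, -0.042 for Snhg1, -0.0032 for Gapdh and -0.033 for Tcp1. Of 44 list medians, 33 kept their sign after quantile normalization and 18 on the ribosomal scale.

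Curvature passed for 0 members with a pseudocount of 0.1 and 0 with no filter on low values, but for 132 with a pseudocount of 5, 121 with only members tested, 252 with a trend and robust eBayes and 155 with genes alone at their locus. The difference between arms passed for 0 members with no filter, 4 with the trend, 0 with genes alone at their locus and 2 to 13 with 1 time left out. With 1 time left out, 1711 to 2516 members fell and 2625 to 3931 rose in the knockdown arm, and 1442 to 2417 fell and 1386 to 3481 rose in the control arm, with the 4 lowest counts all without 225 min. The knockdown slope of Mir3096 ran from 0 to 3.04 with 1 time left out. Of 6005 members with a mean of 10 FPKM or more, 1334 fell (22.2%) and 3196 rose (53.2%), against 28.6% and 45.7% of all members. The split between falls and gains thus moves with the FPKM limit, which is taken from the same 4 columns as the slopes. With a net change of 1 log2 unit or more, 19.9% of falls were front-loaded, 66.8% steady and 13.3% late, and 2.27% of gains were front-loaded and 86.4% steady.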
